A study of Mus musculus with 2 samples.

Results

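The genes described here are the regulators that drive and hold back the cell division cycle: the cyclins, the cyclin-dependent kinases (CDKs), the CDK inhibitors, the E2F transcription factors, the pocket proteins Rb1, Rbl1 and Rbl2, the Cdc25 phosphatases and the kinase Wee1. They were taken by gene symbol, as the protein-coding rows whose symbol belongs to one of these families, leaving out 1 inhibitor, which gave 65 genes of 37620 gene rows, 22382 of them protein-coding. RNA was sequenced from 2 samples of mouse heart at embryonic day 12.5, replicate 1 and replicate 2, both of mixed C57BL/6 x 129S6 background and with no treatment. They are a single group, so the data give levels and no comparison between conditions. The labels do not say if the samples are separate embryos, pools or repeat libraries, and the spread between them may therefore be only technical.

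Progress through the cell cycle is driven by CDKs, most of which are switched on by binding a cyclin. D cyclins with Cdk4 or Cdk6 start the phosphorylation of the pocket proteins, which releases E2F factors to switch on genes of DNA synthesis. E and A cyclins with Cdk2 then carry cells through S phase, and A and B cyclins with Cdk1 carry them into mitosis. A second set of cyclins and CDKs acts on RNA polymerase II and splicing rather than on division. Heart muscle cells divide in the embryo and largely stop doing so after birth.

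Levels are in FPKM, fragments per kilobase of transcript scaled to library size, and are set side by side between genes on that basis. Dividing by length need not remove every bias between genes, and the size of such bias was not tested. They are printed for each library, or as mean ± SD with n = 2. All gene rows together summed to 388230 FPKM in replicate 1 and to 382561 in the other library. The number of fragments is unknown, and low values put the depth of replicate 1 at 1.33 times that of replicate 2. The tissue label was checked against markers: all 6 cardiomyocyte genes, 3 endothelial, 3 epicardial, 3 mesenchymal and 3 erythroid genes reached 1 FPKM in both libraries. None of 4 genes of neighbouring liver, lung and foregut did so in both (summed 1.44 and 2.64 FPKM), and none of the 22 was listed at 0 in both. The liver genes Afp (0.858 and 1.49 FPKM) and Alb (0.577 and 1.12 FPKM) passed 1 FPKM in replicate 2 only. The RNA thus came from a mixture of cell types. In such bulk RNA, fewer cells of a type and less RNA per cell cannot be told apart.

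Of the 65 regulators, 59 reached 1 FPKM in both libraries, against 52.2% of all protein-coding rows. At 10 FPKM or more in both there were 38, against 26.9%, and at 50 FPKM or more 8, against 5.08%. Their median was 13.3 FPKM, while all protein-coding rows had a median of 1.61 FPKM and those at 1 FPKM or more in both libraries 10.8 FPKM. The 6 regulators under 1 FPKM in both libraries were Cdkn2b, Ccna1, Ccnb3, Cdk15, Cdkn2a and Ccno. The 5 highest, Cdk4, Ccnd3, Ccni, Cdk1 and Ccnd2, made up 43.5% of the FPKM summed over all 65.

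**Figure D1:**
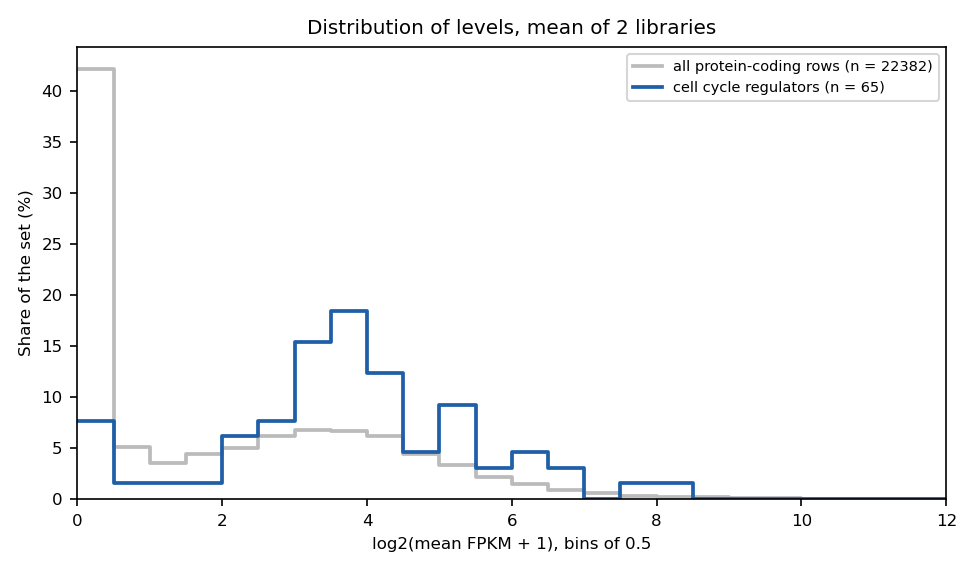
Share of genes (vertical axis, percent) in bins of log2(mean FPKM + 1) (horizontal axis) for the 65 cell cycle regulators and for all 22382 protein-coding rows, from the mean of 2 libraries. The protein-coding rows pile up in the lowest bin, while the regulators are spread around their median of 13.3 FPKM.

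**Figure D2:**
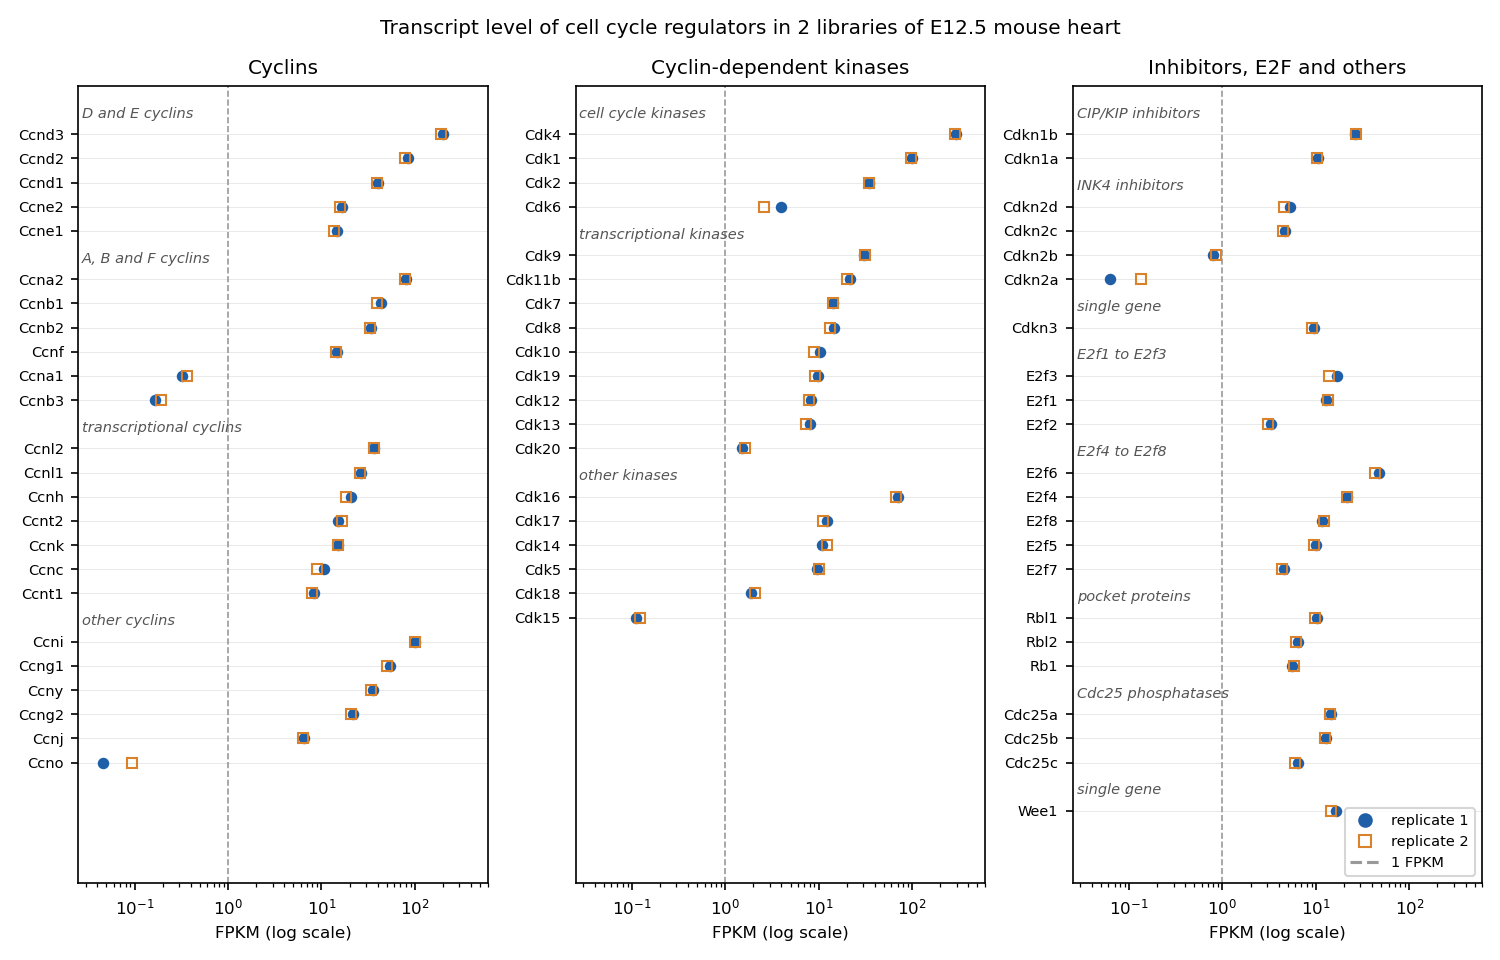
FPKM on a log scale for each of the 65 regulators, grouped by role, with filled circles for replicate 1, open squares for replicate 2 and a dashed line at 1 FPKM. Cdk4 lies highest at 295 and 291 FPKM, and 6 genes lie left of the line in both libraries.

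E2F factors, themselves among these genes, are known to act on promoters of other cell cycle genes, so promoters of the regulators were searched for their sites. RefSeq windows (build GRCm38.p6) were matched by symbol for 51 of the 65, and the 250 bases before each start were searched on both strands. The 14 without a window were Ccna2, Ccnd1, Ccnd2, Ccne2, Ccnh, Ccny, Cdc25c, Cdk5, Cdk17, Cdk19, E2f4, E2f5, Rb1 and Wee1. A gene counted if any of its windows held a word, and 7 of the 51 had more than 1 window. The words searched were TTTCCCGC, TTTGGCGC, TTTCGCGC and TTTGCCGC for E2F, TTTGAA and TTCGAA for the cell cycle homology region (CHR, an element of mitotic genes) and CCAAT for NF-Y. No word holds another. An E2F word was found for 7 of the 51: Cdk1, Cdk2, Cdc25a, Rbl1, E2f3, E2f7 and Cdkn2a. E2f3 and Cdkn2a each also had a window without an E2F word. Among the 14911 protein-coding genes with a window, 2.72% had an E2F word, and among the 8349 of those at 1 FPKM or more in both libraries, 4.20%. The median level was 14.3 FPKM with the word, in 7 genes, and 12.4 FPKM without it among the regulators. The same medians were 9.96 and 2.41 FPKM over the 14911, and 13.3 and 11.2 FPKM over the 8349. CHR words were found for 11 of 51 (21.6%), against 17.6% of the 14911 and 14.1% of the 8349. CCAAT was found for 26 (51.0%), against 39.6% and 41.0%. These are matches of letters, and binding was not measured.

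The promoters of the 4 genes with a mean of at least 10 FPKM whose only window held an E2F word are printed, to show where the words lie in 2 kinases, a phosphatase and a pocket protein. That of the mitotic cyclin Ccnb2, with CCAAT and CHR words and no E2F word, follows for contrast. Each runs 5′ to 3′ on the gene's strand and ends at the base before the start. Capitals mark the matched words.
Cdk1: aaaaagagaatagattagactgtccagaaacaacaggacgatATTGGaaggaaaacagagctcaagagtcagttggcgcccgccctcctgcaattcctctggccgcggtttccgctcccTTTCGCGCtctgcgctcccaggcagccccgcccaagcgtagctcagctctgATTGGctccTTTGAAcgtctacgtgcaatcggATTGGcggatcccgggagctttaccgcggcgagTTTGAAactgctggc
Cdk2: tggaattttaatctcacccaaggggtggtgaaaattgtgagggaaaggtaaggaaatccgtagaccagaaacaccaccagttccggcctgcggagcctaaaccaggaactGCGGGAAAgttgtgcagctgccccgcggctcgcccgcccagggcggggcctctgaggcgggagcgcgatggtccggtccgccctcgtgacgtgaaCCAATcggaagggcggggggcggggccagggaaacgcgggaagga
Cdc25a: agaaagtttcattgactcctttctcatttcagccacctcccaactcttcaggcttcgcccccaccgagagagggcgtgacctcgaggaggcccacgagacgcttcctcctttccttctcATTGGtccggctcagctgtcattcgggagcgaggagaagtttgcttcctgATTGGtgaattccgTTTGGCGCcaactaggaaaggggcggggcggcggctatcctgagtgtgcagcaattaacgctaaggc
Rbl1: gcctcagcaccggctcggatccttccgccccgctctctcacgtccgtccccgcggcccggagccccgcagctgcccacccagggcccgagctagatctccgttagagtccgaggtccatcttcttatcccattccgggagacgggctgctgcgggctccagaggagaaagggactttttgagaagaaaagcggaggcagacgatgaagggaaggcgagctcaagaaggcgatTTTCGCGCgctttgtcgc
Ccnb2: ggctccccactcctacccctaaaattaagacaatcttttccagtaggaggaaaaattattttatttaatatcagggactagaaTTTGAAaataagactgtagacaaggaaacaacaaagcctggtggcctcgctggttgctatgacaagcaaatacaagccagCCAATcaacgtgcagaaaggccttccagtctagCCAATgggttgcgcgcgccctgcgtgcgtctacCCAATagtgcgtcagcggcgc
Cdk1 (chr10:69352913-69353162, minus strand) has its E2F word 123 bases before the start, 2 CHR words ending 65 and 9 bases before it, and 3 CCAAT words. In Rbl1 (chr2:157204535-157204784, minus strand) the E2F word ends 10 bases before the start and no other word was found. Cdc25a (chr9:109875329-109875578, plus strand) has TTTGGCGC 59 bases before the start, with 2 CCAAT words further upstream. Cdk2 (chr10:128705052-128705301, minus strand) has TTTCCCGC on the opposite strand, 132 bases away. The 3 CCAAT words of Ccnb2 (chr9:70421555-70421804, minus strand) end 82, 49 and 16 bases before the start. The only CHR word found for Ccnb2 ends 161 bases before the start, upstream of all 3. Bases after the start were not searched, so a word lying there would have been missed.

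The D cyclins, which link growth signals to the cycle, were led by Ccnd3. Ccnd3 was at 198 FPKM in replicate 1 and 193 in replicate 2 (chromosome 17, 47642000 to 47736632, mm9). Ccnd2 was at 83.9 and 79.1 FPKM (chromosome 6, 127075797 to 127101066). Ccnd1 was at 40.2 and 39.6 FPKM (chromosome 7, 152115836 to 152125774). The ranges of these 3 genes did not overlap. Ccnd2 exceeded Ccnd1 by a log2 ratio of 1.01 ± 0.04 (log2 of FPKM + 1), and Ccnd1 over Ccnd3 was -2.26 ± 0.01. Ccnd3 exceeded Ccnd2 by 1.25 ± 0.03, a ratio chosen after the values were seen. The ratios of Ccnd1 to the others were past 0.22, the size that 95% of protein-coding rows averaging at least 1 FPKM stayed under when the libraries were compared. That size serves below as the yardstick, and it covers the spread between the libraries only. An exact sign-flip test on 2 libraries cannot give a two-sided p under 0.5, and no p is printed. Ccnd3 also has a pseudogene row, Ccnd3-ps, at 3.09 and 5.35 FPKM. On the opposite strand, Ccnd3 overlaps Bysl, at 12.1 ± 0.0856 FPKM, and Ccnd1 overlaps Oraov1, at 11.2 ± 0.721 FPKM.

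The E cyclins, partners of Cdk2 at the entry into S phase, were lower and nearly level. Ccne2 was at 16.8 and 16.0 FPKM and Ccne1 at 14.7 and 13.7 FPKM. Their log2 ratio of -0.20 ± 0.02 (Ccne1 over Ccne2) did not pass 0.22. It passed a yardstick of 0.18 taken from the 500 protein-coding rows nearest in level, chosen after the data were seen. Ccne2 shares 5622 bases of its locus, introns included, with Ints8 on the opposite strand, at 16.5 and 16.1 FPKM. Of its longest transcript, 474 of 3006 bases matched Ints8, so the value of Ccne2 is uncertain.

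Among the cyclins of S phase and mitosis, Ccna2 was highest, at 81.0 and 78.4 FPKM. Ccnb1, the main mitotic cyclin, was at 43.4 and 39.7 FPKM, and Ccnb2 at 34.4 and 32.9 FPKM. Ccnf, an F-box protein of a ubiquitin ligase, was at 14.7 and 14.4 FPKM. The ranges of these 4 did not overlap. The order of the B cyclins was the least firm of them, since Ccnb1 exceeded Ccnb2 by 0.30 ± 0.05, which passed 0.22 in both libraries. With the FPKM of pseudogene copies added to both, replicate 2 gave 0.2235 against the unrounded limit of 0.2238, and with a pseudocount of 0.1 it gave 0.27 against that setting's limit of 0.28. Ccnb1 matched the pseudogenes Ccnb1-ps over 1287 bases and Gm12856 over 1294 bases at 98% identity or more. These were at 0.497 ± 0.196 and 0.246 ± 0.192 FPKM, and reads from the matched stretches are uncertain between the copies.

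The germline forms stood far below. Ccna1, known from meiosis, was at 0.319 and 0.364 FPKM and Ccnb3 at 0.167 and 0.192 FPKM. Ccna2 over Ccna1 gave a log2 ratio of 5.91 ± 0.07 with a pseudocount of 1, and 7.50 with 0.1.

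Cdk4, the kinase partner of the D cyclins, was the highest of all 65 genes and number 131 of the 22382 protein-coding rows. It was at 295 FPKM in replicate 1 and 291 in replicate 2 (chromosome 10, 126500590 to 126504976, mm9). Cdk6, which binds the same cyclins, was at 3.94 and 2.60 FPKM (chromosome 5, 3343893 to 3523218). Cdk4 was thus 74.7 times Cdk6 in replicate 1 and 112 times in replicate 2, and the log2 ratio was 6.12 ± 0.31. The width of that spread came from Cdk6, which differed more between the libraries than any other of the 65 genes on the log2(FPKM + 1) scale. Cdk4 shares 604 bases of its locus with Tspan31 on the opposite strand, at 34.9 and 35.0 FPKM, and how reads in that stretch were assigned is not given in the sources used here.

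Cdk1, the mitotic kinase, was at 101 and 97.6 FPKM (chromosome 10, 68799383 to 68815686). Cdk2, the S phase kinase, was at 34.9 and 34.7 FPKM (chromosome 10, 128134995 to 128142107). Cdk1 exceeded Cdk2 by a log2 ratio of 1.49 ± 0.03. Set beside their partners in ratios chosen after the values were seen, Cdk1 was 1.25 and 1.24 times Ccna2 in the 2 libraries and 2.33 and 2.46 times Ccnb1. Cdk2 was 2.07 and 2.17 times Ccne2, and Cdk4 was 1.49 and 1.51 times Ccnd3. Cdk2 was lower than Ccna2, its other partner, in both libraries. Ratios chosen in the same way for other kinases ran both ways on the log2 scale. Cdk14 over Ccny was -1.51 ± 0.16, Cdk12 over Ccnk -0.82 ± 0.04, Cdk11b over Ccnl2 -0.79 ± 0.05 and Cdk7 over Ccnh -0.41 ± 0.10. Cdk9 over Ccnt2 was 0.92 ± 0.05 and Cdk8 over Ccnc 0.46 ± 0.09. A row for Cdk3 exists only as a polymorphic pseudogene (1.05 and 0.622 FPKM) and is not among the 65.

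**Figure D3:**
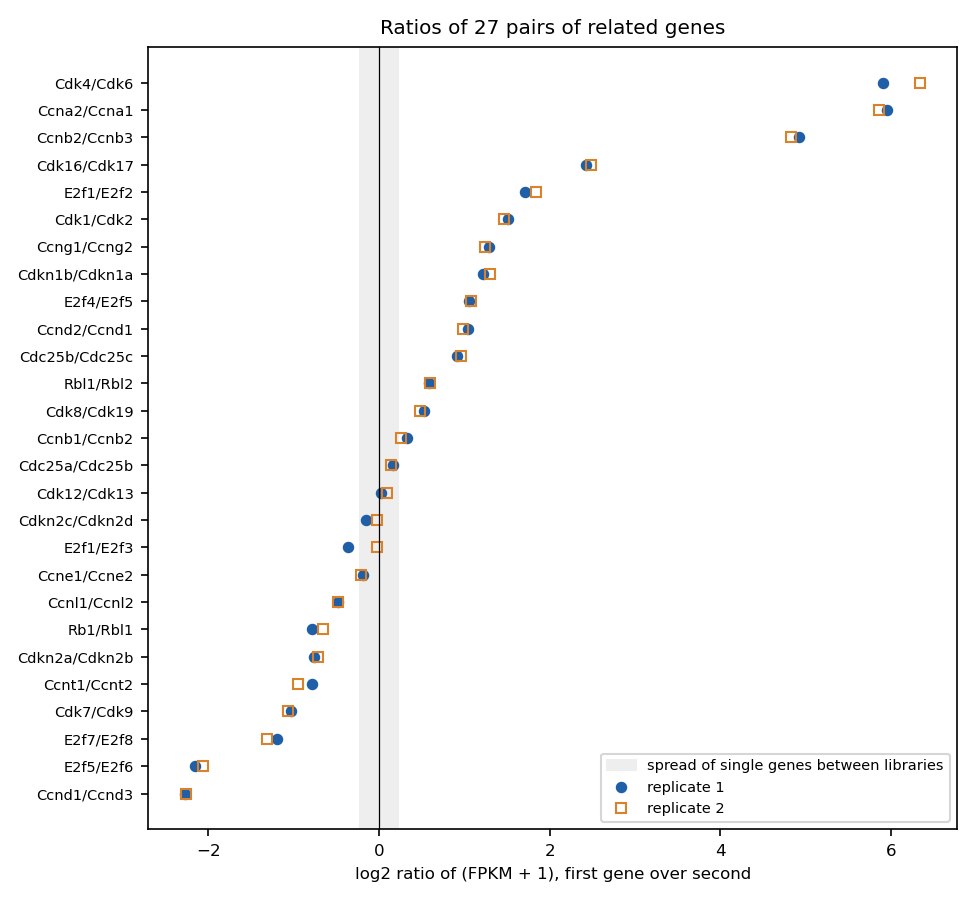
Log2 ratio of (FPKM + 1) for 27 pairs of related regulators, first gene over second, in replicate 1 (filled circles) and replicate 2 (open squares), with the grey band marking 0.22 on either side of 0. In 22 pairs both libraries lie outside the band on the same side, and no such count was made for pairs of other genes. The pairs farthest from 0 are Cdk4 over Cdk6 (5.90 and 6.34) and Ccna2 over Ccna1 (5.96 and 5.86), whose libraries overlap.

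The CDK inhibitors described here differed in level by family. Cdkn1b (p27), which binds cyclin-CDK complexes, was at 26.0 and 27.0 FPKM. Cdkn1a (p21), a p53 target of the same family, was at 10.6 and 10.3 FPKM. Cdkn1b exceeded Cdkn1a by 1.26 ± 0.06. The INK4 inhibitors, which bind Cdk4 and Cdk6 alone, had no member at 10 FPKM and summed to 10.8 and 10.02 FPKM. Cdkn2d was at 5.28 and 4.56 FPKM and Cdkn2c at 4.67 and 4.47 FPKM. The ranges of these 2 genes overlapped, and their ratio of -0.08 ± 0.09 did not pass 0.22. Cdkn2b was at 0.798 and 0.860 FPKM. Cdkn2a, whose locus also encodes ARF, was at 0.0626 and 0.134 FPKM. The 2 low genes lie next to each other on chromosome 4, with 11641 bases between them. Cdkn3, a phosphatase that acts on CDKs, was at 9.63 and 9.08 FPKM.

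Of the activating E2Fs, E2f3 was at 17.0 and 13.8 FPKM, E2f1 at 12.9 and 13.6 FPKM and E2f2 at 3.27 and 3.07 FPKM. E2f1 exceeded E2f2 by 1.78 ± 0.10. E2f1 and E2f3 could not be ranked beyond the spread: their ratio was -0.37 in replicate 1 and -0.02 in replicate 2. Among the others, E2f6, a repressor that acts without pocket proteins, was highest of the whole family at 47.9 and 43.2 FPKM. E2f4, a partner of Rbl1 and Rbl2, was at 21.7 and 21.4 FPKM and E2f5 at 9.96 and 9.62 FPKM. The atypical repressors were at 11.6 and 12.2 FPKM for E2f8 and at 4.53 and 4.30 FPKM for E2f7, a ratio of -1.25 ± 0.09 for E2f7 over E2f8. E2f4 exceeded E2f5 by 1.06 ± 0.02, and E2f6 exceeded E2f4 by 1.04 ± 0.09 in a ratio chosen after the values were seen. The medians of E2f4 to E2f8 and of E2f1 to E2f3 were 11.9 and 13.3 FPKM.

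The pocket proteins, which hold E2Fs in check, did not reach 10 FPKM in both libraries. Rbl1 (p107), itself an E2F target, was at 10.3 and 9.82 FPKM. Rbl2 (p130), typical of resting cells, was at 6.51 and 6.14 FPKM, and Rb1 at 5.58 and 5.85 FPKM. Rbl1 stood above both others, by 0.60 ± 0.01 over Rbl2, and Rb1 over Rbl1 was -0.72 ± 0.09. Rb1 overlaps Rcbtb2 on the opposite strand, at 32.8 ± 1.49 FPKM, and Rbl2 overlaps Aktip, at 12.2 ± 0.254 FPKM. In both cases the opposite gene was the higher. Rbl1 overlaps the pseudogene row Gm14277 on the opposite strand, which was lower, at 2.47 and 4.58 FPKM.

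The Cdc25 phosphatases remove the inhibiting phosphates of CDKs, and Wee1 adds one. Cdc25a was at 14.6 and 14.0 FPKM, Cdc25b at 12.9 and 12.7 FPKM and Cdc25c at 6.37 and 6.01 FPKM. Cdc25b exceeded Cdc25c by 0.94 ± 0.03, while Cdc25a over Cdc25b (0.15 ± 0.02) did not pass 0.22. Wee1 was at 16.6 and 14.7 FPKM, above the highest Cdc25 gene in both libraries.

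Among the cyclins and kinases of transcription, all 7 of these cyclins and all 9 of these kinases, counted with Cdk20, reached 1 FPKM in both libraries, at medians of 15.8 and 9.70 FPKM. Ccnl2 (37.0 and 36.3 FPKM) and Ccnl1 (26.3 and 25.8 FPKM), splicing-linked partners of Cdk11, led the cyclins. Their ratio was the same in both libraries to within 0.001 log2 units (Ccnl1 over Ccnl2, -0.48). Cdk9, the elongation kinase of P-TEFb, led the kinases at 30.3 and 31.2 FPKM. Its cyclins were at 15.1 and 16.5 FPKM for Ccnt2 and at 8.34 and 8.02 FPKM for Ccnt1, with a ratio of -0.87 ± 0.12 for Ccnt1 over Ccnt2. In the CDK-activating kinase, Cdk7 was at 14.4 and 14.4 FPKM and Ccnh at 20.5 and 18.4 FPKM. Ccnh overlaps Rasa1 on the opposite strand, which was at 21.7 ± 0.357 FPKM.

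In the Mediator kinase module, Cdk8 was at 14.5 and 13.2 FPKM, its paralogue Cdk19 at 9.75 and 9.17 FPKM and Ccnc at 10.8 and 8.89 FPKM. Cdk8 exceeded Cdk19 by 0.50 ± 0.03. Cdk12 and Cdk13, elongation kinases that share Ccnk, were level: Cdk12 was at 8.27 and 7.83 FPKM and Cdk13 at 8.09 and 7.30 FPKM. Their ranges overlapped and the ratio of 0.06 ± 0.04 did not pass 0.22. Ccnk was at 15.0 and 14.9 FPKM. Cdk10 (10.4 and 9.03 FPKM) lies in a stretch of 7410 bases that it shares with the row Gm20388 on the same strand, at 26.4 ± 1.28 FPKM, so the value of Cdk10 is uncertain. Cdk11b was at 21.5 and 20.0 FPKM and Cdk20, linked to cilia, at 1.51 and 1.64 FPKM.

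The remaining cyclins and kinases included some of the highest genes. Ccni, an atypical cyclin, was at 101 and 99.3 FPKM, and its range overlapped that of Cdk1. Ccng1, a p53 target, was at 54.4 and 50.8 FPKM and Ccng2 at 21.6 and 20.9 FPKM, a ratio of 1.27 ± 0.03. Ccng2 and Ccni are neighbours on chromosome 5, with 60762 bases between them. Ccny, a membrane-bound cyclin that binds Cdk14 and Cdk16, was at 35.8 and 33.8 FPKM. Cdk16 was at 70.0 and 67.7 FPKM, Cdk17 at 12.2 and 11.3 FPKM and Cdk14 at 10.9 and 12.2 FPKM. Cdk16 exceeded Cdk17 by 2.45 ± 0.05. Cdk17 overlaps Elk3 on the opposite strand, at 32.4 ± 1.33 FPKM. Cdk5, known from neurons, was at 9.68 and 9.99 FPKM, while its activators Cdk5r1 and Cdk5r2 were at 0.680 and 0.760 FPKM and at 0.0398 FPKM and listed at 0. Ccnj was at 6.58 and 6.34 FPKM, Cdk18 at 1.88 and 2.06 FPKM and Cdk15 at 0.111 and 0.124 FPKM. Ccno, known from multiciliated cells, was lowest of all at 0.0455 and 0.0938 FPKM.

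In the order of all 65 levels, 34 of 64 neighbouring genes had overlapping ranges, so many places in the middle of the order are not fixed by these libraries. The first such neighbours from the top were Ccni with Cdk1 and Ccnd2 with Ccna2.

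The libraries gave close values for these genes. Of the 52 that averaged at least 5 FPKM, 0 differed 2-fold or more, against 0.0692% of protein-coding rows that were higher in replicate 2 by this rule and 0.0115% that were higher in replicate 1. The count was also 0 for those averaging at least 1 FPKM, without a filter on low values and, at 5 FPKM or more, at a fold of 1.5. By the same settings 0.119%, 0.076% and 0.3% of protein-coding rows differed in either direction, so a count of 0 is near the background. The median coefficient of variation at a mean of 1 FPKM or more was 3.61% for the regulators and 3.47% for all protein-coding rows. Replicate 2 was lower for 44 of the 52 genes, against 72.1% of protein-coding rows, and the median differences were -0.05 and -0.04 log2 units. After the libraries were scaled to an equal upper quartile these were 38 of 52 and 63.4%.

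**Figure D4:**
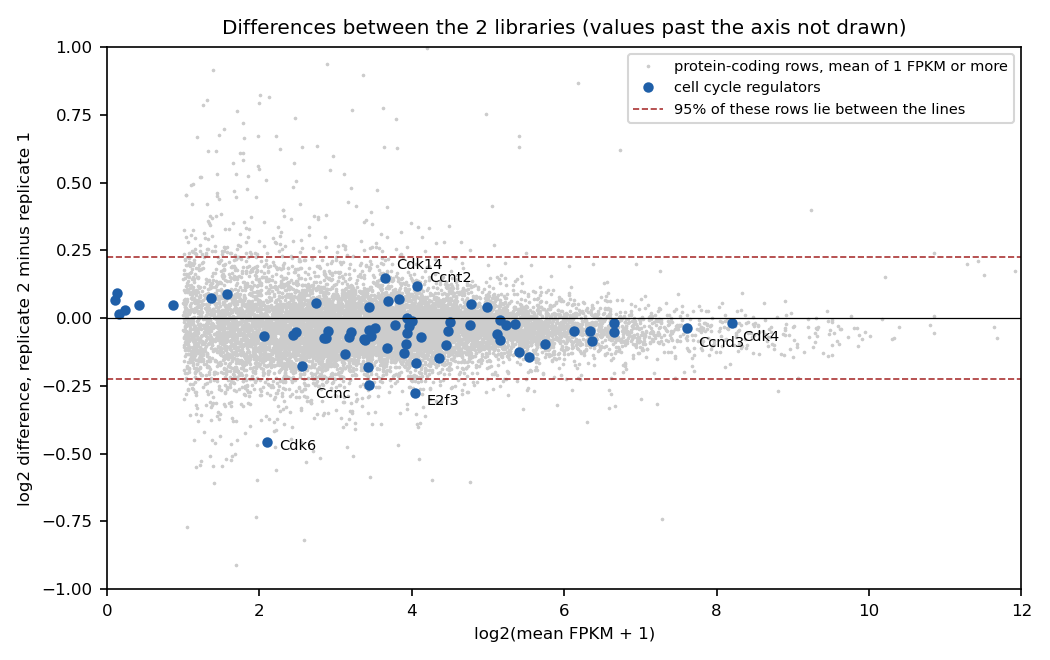
Log2 difference of (FPKM + 1), replicate 2 minus replicate 1, against log2(mean FPKM + 1), with regulators in blue, protein-coding rows with a mean of 1 FPKM or more in grey and dashed lines at 0.22 on either side of 0. Cdk6, E2f3 and Ccnc are the 3 regulators outside the lines, all lower in replicate 2.

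Of the 59 regulators that averaged at least 1 FPKM, 3 lay past 0.22: Cdk6 at -0.46, E2f3 at -0.28 and Ccnc at -0.25. That is 5.08% of them, against 5.0% of protein-coding rows by the way the yardstick was set, so the count is at the background. Cdk6 has the second longest transcript of the set, at 11525 bases in the GENCODE M21 annotation, after Cdk13 with 12548. E2f3 has 5097 and Ccnc 3484 bases. Over all protein-coding rows that averaged at least 5 FPKM, longer transcripts tended to be lower in replicate 2. Of rows over 5000 bases 85.6% were lower there, at a median of -0.08, and of shorter rows 68.2%, at a median of -0.03 (Spearman's rho -0.26 and Pearson's r -0.24 with log2 length, across 8614 genes that share the same 2 libraries). Among the 52 regulators at that level, 7 of 9 over 5000 bases and 37 of 43 shorter ones were lower, and rho was -0.03 and r 0.03. Cdk6, with a mean of 3.27 FPKM, is not among these 52. The part of transcript length in the difference of Cdk6 was not tested.

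Of the 65 genes, 14 overlap a row on the opposite strand with a mean of 1 FPKM or more. For 4 of these, Rb1, Rbl2, Ccnh and Cdk17, an opposite gene had the higher mean. Ints8 was above Ccne2, and 2610029I01Rik above Ccnc, in replicate 2 only. These overlaps are of whole loci, introns included, and the stretches matched between transcripts were shorter. Rb1 matched Rcbtb2 over 107 of 4656 bases, and Rbl2 matched Aktip over 346 of 4925. No match of 75 bases or more to the opposite gene was found for the longest transcripts of Ccnh, Cdk17 and Ccnc. The library kit does not mark strand, and reads from stretches that both genes transcribe cannot be told apart. Without the 14, 45 of 51 regulators reached 1 FPKM in both libraries.

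Of a list of 41 partners and regulators of these genes, 37 reached 1 FPKM in both libraries, against the 52.2% of all protein-coding rows, and the median was 10.96 FPKM. The highest was Rbbp4, a histone-binding protein of the MuvB complex, at 165 and 162 FPKM. Cks1b, a small CDK-binding protein, was at 89.7 and 89.4 FPKM, the kinase chaperone partner Cdc37 at 55.1 and 55.3 FPKM and Trp53, the p53 gene, at 44.0 and 43.2 FPKM. Tfdp1, the dimer partner of E2Fs, was at 38.4 and 37.5 FPKM, and Tfdp2 at 8.83 and 8.86 FPKM. The 4 genes under 1 FPKM were the Cdk5 activators Cdk5r1 and Cdk5r2, Spdya, a CDK activator known from germ cells (0.227 and 0.110 FPKM), and Ccnb1ip1, a meiotic gene (0.114 and 0.0918 FPKM).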

How the data were processed

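RNA of 2 samples of embryonic mouse heart was sequenced. Per the labels' protocols, Trizol-extracted total RNA went into TruSeq RNA v2 libraries (Illumina), a kit that does not mark strand. The authors deposited 1 FPKM value per gene and library. The submitters' processing notes name GSNAP, Cufflinks, Cuffnorm and the builds mm9 and hg19. The annotation, strand setting and treatment of multiply matching reads were not given in the sources used here. Positions are the files' own and fit mm9, since genes on chromosome 1 reach 197054592.

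From these values came mean ± SD, and differences and ratios of log2(FPKM + 1), which understate ratios of low genes. Relative depth is the commonest ratio among 2881 genes under 0.1 FPKM. Count tests were not run, since FPKM are not counts. Any gene found by the symbol rule may be named, and 1 further inhibitor is not reported here. The members, lists and pairs were chosen with earlier results of these data known. Longest transcripts and near-identical copies (98% identity over 75 bases or more, BLAST 2.17.0) came from GENCODE M21, which held 64 of the 65 genes. RefSeq promoters (GRCm38.p6) were used for sequence only. The fold rule was tested on simulated data with sampling noise only and planted changes larger than 2-fold. Spread beyond sampling was not simulated, so that test does not show how the rule behaves on these libraries. Alternatives were other detection limits, pseudocounts, folds and filters, rescaling and each library alone. Work was done in Python 3.11.15 with pandas 2.3.3, NumPy 2.4.6 and, for plots, Matplotlib 3.10.9.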

Additional observations from a re-analysis of the deposited data

How the results depend on the processing

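The count of regulators at 1 FPKM or more in both libraries was 60 at a limit of 0.5 FPKM and 57 at 2 FPKM, and 59 in each library alone. The median level of 13.3 FPKM was 14.3 FPKM for genes averaging at least 1 FPKM, 11.9 FPKM without genes that overlap an expressed opposite-strand gene (chosen after seeing the data), and between 12.9 and 13.2 FPKM with 1 library left out. The number of pairs past the yardstick in both libraries was 21 to 23 of 27 under the alternatives, against 22. No such count was made for pairs of other genes. No pair ratio changed sign in 135 recomputed values, but many of these could not have changed it. A pseudocount cannot alter the sign within a library, and another yardstick leaves the ratio itself unchanged. Added pseudogene copies alter only ratios that hold Ccnb1, Ccnb2 or Ccnd3. Ccnb1 over Ccnb2, Ccne1 over Ccne2 and E2f1 over E2f3 were the pairs that crossed the yardstick under some alternative. Of the partner list, 38 genes reached 0.5 FPKM and 37 reached 2 FPKM. Leaving out 1 library gives no value for differences between the libraries. No paired analysis was possible because there is only 1 group. Absolute depth is unknown, so no counting error can be given.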
